A study of Arabidopsis thaliana with 8 samples.

Results

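On 8 one-colour arrays of Arabidopsis thaliana seedlings, 168 of 43603 probes were at their lowest when the ANAC096 line was given abscisic acid (ABA). On the scale used to choose them, neither the line nor the hormone alone moved them by as much as 2-fold. The members were chosen by measured values. A probe's level is log2 of its processed signal minus the 75th percentile of that array, so that a difference of 1 is 2-fold. A member had a mean level in the combined group at least 1.25 below that of each other group, levels in both single groups within 1 of control, and a control level of at least -6. The files give no gene for a probe, and 0 of the probe identifiers were found in the reference gene table used here. The probes are therefore described by their values, and only the pair that ranked first by a fixed rule is given by identifier.

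ANAC096 belongs to the NAC family of plant transcription factors. ABA is a plant hormone that accumulates in drought. Its receptors restrain a group of protein phosphatases, which frees SnRK2 kinases to phosphorylate bZIP transcription factors that bind ABA-responsive promoters. The title of the series places ANAC096 beside such bZIP factors in dehydration and osmotic stress.

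All seedlings were of cultivar Col-0, 12 days old, and had been kept in liquid MS medium (23 °C, days of 16 h light, nights of 8 h). Every group was given 30 µM dexamethasone (Dex) for 1 h. Transgenes carried by pTA vectors are induced by this steroid. The ANAC096+ABA group was the pTA-ANAC096 line with 2 µM ABA added for the last 30 min. The ANAC096 group was the same line with Dex alone, the ABA group was the pTA empty vector line with Dex and the same ABA treatment, and the control group was the empty vector line with Dex alone. Each group had 2 arrays, described by the submitters as biological replicates. The sources used here do not give how many transgenic lines were used, or what the seedlings were like before Dex. Line differences from before Dex and the effect of inducing ANAC096 therefore cannot be told apart. Whole seedlings were measured, so fewer cells of a type and less RNA per cell cannot be told apart either.

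All 8 arrays lay on 1 slide and 0 spots were saturated. Of the 43603 probes, 32732 to 34814 were well above background on an array. Arrays with ABA filled slide row 2 and arrays without it row 1, and the lines lay in separate slide columns. The place of the ANAC096+ABA arrays and their treatment therefore cannot be told apart. The E1A spike-in controls, which are RNA added at labelling, did not stay level on the 75th percentile scale. Their mean log2 level was -0.05 ± 0.17 in ANAC096+ABA, 0.66 ± 0.09 in ANAC096, 0.31 ± 0.05 in ABA and 0.041 ± 0.005 in control (SD, n = 2 each).

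The members fell in ANAC096+ABA to a median of 26% of their control signal, with members between 6.97% and 41.8%. On the log2 scale, the difference of ANAC096+ABA from control had a median of -1.94 over the 168 members. The difference from ANAC096 had a median of -1.93, and that from ABA a median of -1.67. Over the 153 members well above background on both ANAC096+ABA arrays, the differences ran from -3.84 to -1.26 against control, from -4.21 to -1.27 against ANAC096 and from -3.24 to -1.25 against ABA. The other 15 members were at or near background there, so that their differences are limited by it. Over all 34503 tested probes the same 3 medians were -0.089, -0.0073 and -0.023. These differences are the ones the rule used, so their direction is fixed by the choice of probes and they carry no test. In the limma fit over all probes, adjusted p under 0.05 was reached by all 166 members in the fit for each of the 3 differences, where 36.8%, 23% and 22.6% of tested probes were called lower against control, ANAC096 and ABA in that order.

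Array by array, the median level of the members was -2.43 and -2.42 in ANAC096+ABA, against -0.36 and -0.41 in ANAC096, -0.45 and -0.52 in ABA and -0.43 and -0.45 in control. The arrays of ANAC096+ABA stood below the rest for every member. In all 168, both ANAC096+ABA arrays were below all 6 other arrays, against 18.8% of tested probes at any size of difference. The rule used these same values, with a threshold well above the usual spread of replicates. The count was therefore nearly fixed by the choice of probes and is no test. The gap between the higher ANAC096+ABA array and the lowest other array was 0.79 to 3.17 over the 153 members measured on both, with a median of 1.46. Replicates lay close: the median SD of a member was 0.051 in ANAC096+ABA, 0.038 in ANAC096, 0.029 in ABA and 0.070 in control, beside 0.046, 0.049, 0.033 and 0.069 over all tested probes. Of the 153 members, 27 were at least 4-fold lower than each of the other groups and 2 at least 8-fold lower.

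A_84_P17470 ranked first among members well above background on all 8 arrays. Its log2 level was -6.98 and -7.09 on the ANAC096+ABA arrays, against -2.83 and -2.81 in ANAC096, -3.80 and -3.79 in ABA and -3.24 and -3.14 in control. ANAC096+ABA was far below the rest, and the other groups also stood apart from each other, with ANAC096 highest and ABA lowest among them on this scale. ANAC096+ABA differed from control by -3.84 (14.3-fold lower), from ANAC096 by -4.21 (18.5-fold lower) and from ABA by -3.24 (9.42-fold lower), each with a standard error of 0.058 from the limma fit over all probes. ANAC096 alone was 0.37 above control and ABA alone 0.61 below it (log2 difference -0.61). With spike-in scaling the ANAC096 difference turned to -0.26, so control was then the highest group. The signal of this probe in ANAC096+ABA was dim, and with normexp background correction its differences were -2.80 from control, -3.18 from ANAC096 and -2.28 from ABA.

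A_84_P564098 ranked second and was flat across the other groups on the 75th percentile scale. Its log2 level was -3.53 and -3.43 in ANAC096+ABA, against -0.33 and -0.38 in ANAC096, -0.20 and -0.26 in ABA and -0.39 and -0.26 in control. Both ANAC096 arrays lay between the control arrays and ABA lay at or just above them, while both ANAC096+ABA arrays were far below. The differences of ANAC096+ABA were -3.15 from control, -3.12 from ANAC096 and -3.24 from ABA (standard error 0.064 each), or 8.87-fold, 8.71-fold and 9.47-fold lower. With spike-in scaling the difference from ANAC096 was -2.41, and ANAC096 alone differed from control by -0.65, so the other groups were not flat on that scale.

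The brightest member in control kept a measurable signal in the combined group. It had log2 levels of 0.94 and 1.42 in ANAC096+ABA, against 4.45 and 4.31 in ANAC096, 3.98 and 3.87 in ABA and 3.93 and 4.34 in control. Its replicates were further apart than those of most members, but ANAC096+ABA was still 2.96 below control, or 12.9% of the control signal.

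The control levels of the members covered the range that the rule allowed, from -5.98 to 4.13 with a median of -0.42, beside a median of -1.29 over all tested probes. By control level, there were 23 members from -6 to -4, 26 from -4 to -2, 46 from -2 to 0, 49 from 0 to 2 and 24 above 2. Set against the tested probes of the same level, these were 0.519%, 0.409%, 0.501%, 0.652% and 0.697%. The median fall against control was -1.80, -1.85, -2.09, -1.94 and -1.93 in the same order. The rule cut all of these at the same threshold, and in the dimmest class 10 of 23 members were below background on both ANAC096+ABA arrays, so the medians cannot be compared by level.

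All 168 members were well above background on both ANAC096 arrays and both control arrays, and 167 on both ABA arrays. In ANAC096+ABA, 153 members were well above background on both arrays, 4 on 1 array and 11 on neither. For these 11, of which 10 had control levels below -4, the fall has only a bound, set by the lowest signal that was well above background on each array or by the probe's own signal where that was higher. By this bound all 11 were at least 2-fold lower than control and than ANAC096, and 8 were at least 2-fold lower than ABA. Against all of these groups, 3 of the 11 were at least 4-fold lower by their bound. The steepest of them had log2 levels of -7.53 and -7.44 in ANAC096+ABA, against -3.31 and -3.18 in ANAC096, -3.26 and -3.26 in ABA and -3.88 and -3.94 in control. It was at least 11.1-fold lower than control, at least 17.6-fold lower than ANAC096 and at least 17.4-fold lower than ABA.

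Within the band of 1 around control, the single treatments differed in their balance over the members. ANAC096 alone was above control for 84 members and below it for 84, with a median difference of 0.0079. ABA alone was below control for 124 members and above it for 44, with a median of -0.21, beside -0.068 over all tested probes. Of the 166 members in the fit, limma called 54 higher and 49 lower in ANAC096 than in control, 103 in all, where 26.6% of tested probes were called higher and 32.6% lower, 59.2% in all. For ABA against control it called 22 higher and 78 lower, 100 in all, where 18.5% were called higher and 28.7% lower, 47.2% in all. The rule bounded both differences, so these calls describe the members and support nothing further. The direction against control rests on the scaling: with spike-in scaling, 154 of 167 members were lower in ANAC096 and 148 of 166 lower in ABA than in control. That scaling moved all probes by -0.62 for ANAC096 and by -0.27 for ABA against control.

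By the signs of the single differences, 67 members were below control in both single groups, 57 were above control in ANAC096 and below it in ABA, 27 were above in both and 17 were below in ANAC096 and above in ABA. Over all tested probes the shares of these classes were 43.9%, 15%, 31% and 10.1%, against 39.9%, 33.9%, 16.1% and 10.1% of the members. ANAC096 was the highest of the groups for 79 members, ABA for 22 and control for 67. Both the classes and this order turned with spike-in scaling, where 139 of 166 members were below control in both single groups and 4 above in both, and ANAC096 was highest for 10, ABA for 17 and control for 139. In 99 members (58.9%) both single treatments were within 0.5 of control, beside 62.1% of tested probes. The member nearest to control showed the pattern in its plainest form. It had log2 levels of -1.78 and -1.93 in ANAC096+ABA, against -0.12 and -0.41 in ANAC096, -0.23 and -0.24 in ABA and -0.11 and -0.38 in control.

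Some members had single changes that were opposite in direction to the combined one. The member with ANAC096 furthest above control had levels of 0.47 and 0.68 in ANAC096+ABA, against 2.88 and 3.04 in ANAC096, 2.85 and 2.86 in ABA and 2.00 and 1.99 in control. Each single treatment was thus above control by 0.96 and 0.86, and ANAC096+ABA was 1.42 below it (log2 difference -1.42). The 27 members above control in both single groups had a median combined difference of -1.47, and the 67 below control in both had -2.21. The rule shapes this contrast, because a member must lie 1.25 below its single groups wherever these stand against control.

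The combined difference was also set against the sum of the single log2 differences. That sum had a median of -0.14 over the members, while ANAC096+ABA lay a median of 1.79 below it (log2 difference -1.79). Over the 153 members measured on both ANAC096+ABA arrays it ran from -3.60 to -0.37. The rule itself places every member at least 0.25 below the sum (-0.25 on the log2 scale), so the sign on this scale is no result. In 154 of 168 members the shortfall was at least 2-fold, beside 7.16% of tested probes. The rule forces such a shortfall wherever either single difference is -0.25 or higher. Most of this count was therefore fixed by the choice of probes, and it is no test. Spike-in scaling moved the difference from the sum by 0.98 for all probes, to a member median of -0.80. On that scale 64 of 166 members were at least 2-fold below the sum, beside 1.80% of tested probes, and 13 were not below it. On the scale used to choose the members, without spike-in scaling, 14 of 168 were less than 2-fold below the sum. The levels that follow are on that scale. In the nearest, the levels were -0.69 and -0.68 in ANAC096+ABA, against 0.67 and 0.68 in ANAC096, 0.72 and 0.66 in ABA and 1.57 and 1.77 in control. There each single treatment was close to 1 below control (-0.996 for ANAC096 and -0.98 for ABA), and ANAC096+ABA was 2.35 below it (-2.35). On the linear scale, adding both single changes to control gave a median of 93.7% of the control signal, and 158 of 168 members were below their own sum. The rule places a member below this sum wherever either single group is at or above control, so this count is no test either. Its share over all tested probes and its value with spike-in scaling are not given here.

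Few probes met the reverse of the rule. The same thresholds with the signs of the combined differences turned gave 18 probes that were highest only in ANAC096+ABA, beside the 168 that were lowest there. Quantile normalization gave 160 lowest and 24 highest, normexp background correction 138 and 14, and the authors' own normalized values 138 and 18. With scaling to the E1A spike-ins the order turned, to 66 lowest and 316 highest. That scaling moved all probes by 0.090 for ANAC096+ABA against control, by 0.71 against ANAC096 and by 0.36 against ABA. These shifts are smaller than the threshold of the rule, so ANAC096+ABA could not stop being the lowest group for a member. On the spike-in scale the 3 differences were at most -1 for 106 of the 166 members with values and at most -1.25 for 63. The threshold against ANAC096 was missed by 86 members, that against ABA by 68 and that against control by 10. The band of 1 around control was missed by 35 members for ANAC096 alone and by 18 for ABA alone. Of the original 168 members, 55 met the whole rule on the spike-in scale.

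The steps of the rule show how the members separate from their neighbours. Of 31143 probes with a control level of at least -6, 1076 were at least 1.25 lower in ANAC096+ABA than in control, 424 of these also than in ANAC096, and 261 also than in ABA. The bands on the single treatments then removed 93 probes. Among them ANAC096 alone was more than 1 below control for 33 and more than 1 above it for 30, and ABA alone was more than 1 below control for 52 and more than 1 above it for 7. Just inside the threshold, the smallest of the 3 differences was -1.2525 and -1.2531, and just outside it was -1.248 and -1.240. A further 122 probes met the other conditions with a smallest difference between -1 and the threshold.

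The number of probes that met the rule was similar on the arrays of either replicate number. The rule applied to the replicate 1 arrays alone gave 170 probes, of which 139 also met it on the replicate 2 arrays and 164 had all 3 differences at most -1 there, beside 1.6% of tested probes. Chosen on replicate 2, there were 176 probes, of which 139 met the rule and 165 had all 3 differences at most -1 on replicate 1, beside 1.52% of tested probes. The rule and its thresholds were set with both replicates known, and all arrays shared the slide, so these counts describe how alike the arrays were and support nothing further.

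Of the members, 76 were printed at 2 places on the array, and the rule had averaged these spots. Both spots met the rule in 64 and 1 spot in 12, and in 74 of 76 both spots had all 3 differences at most -1. The spots of a member differed by a median of 0.085 in the log2 difference from control and by at most 0.99.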

How the data were processed

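RNA of seedlings was measured on 8 one-colour Agilent arrays, 2 in each of 4 groups taken from the sample titles. The authors deposited spot intensity values, extracted with Feature Extraction 10.7.1.1 and protocol GE1_107_Sep09 on array design 031025, per the file headers. The deposited flags, marked 0 or 1 (other values in the scanner files), gave detection, saturation and outliers. A further deposited table held log2 values, which quantile normalization of the log2 median signals returned within 5e-09. Its direction and scale are thereby settled, and it served as an alternative.

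Members and lists were chosen with earlier results of these data known. For the rule and all levels, log2 of the processed signal minus the 75th percentile over all 62976 spots was averaged over the spots of each probe, outlier spots included. The fit with limma 3.58.1 (lmFit, eBayes, R 4.3.3) of all 8 arrays left outlier spots out (376 to 1230 per array) and took the 34503 probes that both arrays of 1 or more groups showed well above background. Outlier spots left 5 of the 168 members without a value on at least 1 array, and 166 members were in the fit. P-values were adjusted by Benjamini-Hochberg at 0.05 and measure only the spread between these arrays. The number of arrays limits the precision, and 2 arrays against 2 allow no exact permutation p under 0.333. The fit and the rule were tested on simulated data with planted falls and independent normal noise of the same spread for all probes. The simulation held no scaling shift, background floor or slide effect, so it does not bear on these limits. Members well above background on all 8 arrays were ranked by the least of their 3 falls, and the 2 deepest are given by identifier. The other single members described were picked for an extreme value after their values were seen. The normexp alternative started from the median signal. Gene lists and tissue markers were not analysed here, because no probe was paired with a gene.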

Additional observations from a re-analysis of the deposited data

Results flagged for a closer look

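The effect of ABA differed between the lines by the interaction term of the limma fit for all 166 members in the fit, where 18.8% of tested probes were called lower in this way. The rule chose the members on differences that make up this term, so the count is a description. With spike-in scaling 122 of the 166 were called, beside 3.25% of tested probes, and 163 in the authors' table, beside 18.4%. The ABA effect of A_84_P17470 was -4.21 in the ANAC096 line and -0.61 in the empty vector line, an interaction of -3.60 on the log2 scale (SE 0.082). It was -2.65 with normexp, -2.69 in the authors' table and -2.62 with spike-in scaling. That of A_84_P564098 was -3.12 in the ANAC096 line and 0.095 in the empty vector line, an interaction of -3.22 (SE 0.091), and -2.23 with spike-in scaling. Slide row coincided with ABA in both lines.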

How the results depend on the processing

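The number of members was 168, and spike-in scaling gave 66. Differences of at most -1 gave 290, of at most -1.5 gave 93, and single treatments within 0.5 gave 99. Leaving out arrays gave 164 to 176. The mirror rule, run under other scalings after the data were seen, gave 316 with spike-ins. Median log2 differences over the members, for ANAC096+ABA against control, ANAC096 and ABA, were -1.78, -1.74 and -1.57 with normexp, -1.80, -1.76 and -1.55 in the authors' table and -1.85, -1.23 and -1.33 with spike-ins, and that against control was -1.97 with quantile normalization. For ANAC096 against control the median was 0.048 with normexp and -0.63 with spike-ins, and for ABA against control -0.16 and -0.49. The interaction median was -1.62 with normexp, -1.57 in the authors' table and -0.80 with spike-ins. Leaving out arrays gave medians of -1.99 to -1.95 against control, -1.95 to -1.91 against ANAC096, -1.71 to -1.67 against ABA, -0.019 to 0.018 and -0.26 to -0.18 for ANAC096 and ABA against control, and -1.81 to -1.76 for the interaction. A_84_P17470 in ANAC096 against control turned to -0.26 with spike-ins. Spike-in scaling left 122 of 166 members called in the interaction, beside 3.25% of tested probes. With replicate number as a block (replicate block), 99 members were called for ANAC096 and 96 for ABA against control, beside 57.6% and 44.7% of tested probes. In the interaction 165 were called, beside 17.7%. For ANAC096+ABA against control, ANAC096 and ABA, 166 were called in each, beside 36.0%, 21.5% and 21.3%. Same-numbered arrays of the same line also shared a slide column. The differences between replicates had correlations of -0.091 to 0.064 between groups. With slide column as a block within each line, 98 were called for ANAC096 and 89 for ABA against control, beside 54.3% and 40.1% of tested probes. This block cannot adjust ANAC096 against control for slide column, because the lines lay in separate columns. The causes were not tested. Signal near background limits mostly, but not only, the members with control levels below -4.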

Other observations

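The 244 spots of the members were spread over the array surface. In 4 equal bands of its 384 rows lay 25.4%, 23.8%, 27% and 23.8%, and in 4 equal bands of its 164 columns 23.4%, 22.5%, 29.9% and 24.2%, while each band held about 25% of all spots. Members had 2 spots in 45.2% of cases, beside 41.4% of all probes.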
